A study of Mus musculus with 8 samples.

Results

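The insulin-like growth factor (IGF) system was represented by 10 of the 12148 genes measured in mouse dental pulp. They were chosen as members of this system, by matching the Ensembl identifier of each gene to its symbol, and comprise the ligand genes *Igf1* and *Igf2*, the receptor genes *Igf1r* and *Igf2r*, and 6 genes of binding proteins, *Igfbp2* to *Igfbp7*. All 10 were among the genes that the authors kept after filtering, and the lowest count of any of them in a library was 26 reads, for *Igfbp6*.

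IGF1 and IGF2 are small secreted peptides that promote growth and survival by activating the receptor tyrosine kinase IGF1R. IGF2R has no kinase activity and carries IGF2 to the lysosome, which removes the ligand from the tissue. The IGF binding proteins hold the ligands in the extracellular fluid, where they can prolong the life of a ligand, keep it from its receptor or deliver it, and proteases that cut the binding proteins set the ligands free. In developing teeth, IGF signalling is known for its roles in the growth of the tooth germ and in the differentiation of odontoblasts and ameloblasts.

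The libraries came from the pulp of first molars at postnatal day 7 (P7), from C57BL/6J mice of 2 genotypes with 4 libraries each. The Osterix-Cre controls carry Cre recombinase under the Osterix promoter, and the *Tgfbr2cko* mice carry the same recombinase and also *Tgfbr2* alleles that it deletes. The recombinase acts in the dental mesenchyme and the odontoblasts that arise from it, so cells of other lineages in the pulp keep *Tgfbr2*. Both genotypes carry the recombinase. Left and right molars were combined. The sources used here do not state which sex each library came from, or that each came from a separate mouse, so the p-values measure the spread between these libraries. The labels number the Osterix-Cre libraries 49 to 52 and the *Tgfbr2cko* libraries 53 to 56. The titles carry another number, not explained in the sources used here, which libraries 49 and 50 share, as do 54 and 55 (which share it with 51) and 53 and 56. Values are in log2 CPM, the log2 of read counts scaled to the same total in every library, unless they are given per length, and the libraries held 8682872 to 13539670 counted reads.

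The library labelled Tgfbr2cko 56 stood apart from the rest. The enamel matrix genes *Amelx* and *Ambn*, known mainly as products of ameloblasts, took 18.5% of its reads and 0.326% to 2.74% of the reads of the other 7. CPM is a share of all reads, so the reads these genes take lower the CPM of the rest. The median log2 CPM over all genes was 4.81 in library 56 and 4.92 to 5.08 in the other 7, so part of a low value in library 56 can come from this scaling. The 11 markers of dental epithelium and ameloblasts, all of them measured and none at 0 in any library, summed to 195952 CPM in it and to 4193 to 30346 CPM in the other 7, sums that *Amelx* and *Ambn* dominate. Library 56 was the highest of the 8 for 7 of these markers, among them the epithelial *Krt14*, *Krt5* and *Cdh1*, and not for *Amtn*, *Odam*, *Mmp20* and *Klk4*. *Klk4*, an enamel protease, was at 5.39 in library 56 and at 4.20 to 5.22 in the other mutants, against 7.26 to 7.78 in the controls, in log2 CPM. Library 56 was also highest in the 3 measured erythroid markers, at 2032 CPM against 491 to 1173, and lowest in the macrophage markers, at 451 CPM, and in the pericyte and smooth muscle markers, at 376 CPM. *Kcnj8* was the largest part of this last sum in every library. It was lowest in library 56, as were *Abcc9* and *Notch3*, and *Rgs5* and *Cspg4* were neither lowest nor highest there. *Acta2* was highest in library 56, at 6.01 in log2 CPM against 2.75 to 4.76. All 7 odontoblast markers and all 8 markers of dental mesenchyme were present in every library, the former at 47723 to 101820 CPM in the controls and 29360 to 62931 CPM in the mutants. *Col1a1* made up most of this odontoblast sum, with a difference of -0.86 (limma-trend p of 0.179). The means of *Phex* and *Ibsp* were higher in the mutants and those of the other odontoblast markers lower. The 5 osteoblast and follicle markers summed to 2309 to 3011 CPM in the controls and 2016 to 2117 CPM in the mutants, with no overlap, a sum made up mostly of *Alpl*, which differed by -0.46, while *Ibsp* of the same list differed by 1.24. *Ibsp* was at 7.56 in library 56, 5.21 to 6.05 in the other mutants and 4.54 to 5.43 in the controls, in log2 CPM. An unadjusted limma-trend p under 0.05 was reached by 8.38% of all genes. At this level 3 of 9 endothelial, 3 of 7 macrophage, 2 of 6 pericyte and smooth muscle and 1 of 8 dental mesenchyme markers were lower in the mutants. Of the 7 odontoblast markers 2 were lower and 1, *Ibsp*, was higher. Of the 11 epithelial markers *Klk4* was lower (difference -2.71, limma-trend adjusted p of 0.00014) and *Cdh1* higher. Of the 5 osteoblast and follicle markers *Alpl* was lower and *Ibsp*, counted in both lists, higher. Of the 2 measured Schwann cell markers 1 was higher, and no erythroid marker passed. The deleted gene, *Tgfbr2*, had log2 values of 7.16, 7.62, 7.64 and 7.52 among the controls and 7.02, 7.00, 7.16 and 7.61 among the mutants, so the libraries labelled Tgfbr2cko 55 and 56 lay within the control range, 55 at its lower end. Its difference was -0.29 with all libraries and -0.42 without library 56. In pulp taken whole, fewer cells of a type and less RNA per cell cannot be told apart.

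None of the 10 IGF genes was altered between the genotypes. With the study's threshold, a 1.5-fold change or more at an unadjusted p under 0.05 in a two-sided limma-trend test, 0 of the 10 were called, against 5.77% of all 12148 genes. The count was also 0 at an unadjusted p under 0.05 alone, where the share of all genes was 8.38%, and 0 when the recovered reads were given voom weights. After adjustment over all genes by the Benjamini-Hochberg method the IGF genes again gave 0, against 0.947%. In no IGF gene did all values of one genotype lie on one side of those of the other, a pattern that 5.27% of all genes showed. The means of 6 were higher and those of 4 lower in the mutants, with a median difference of 0.01 against -0.0053 for all genes. Without library 56 the count of altered IGF genes was again 0, and the lowest unadjusted p of an IGF gene was 0.0845. It was 2 without library 53 (*Igfbp2* and *Igfbp7*), 1 without library 54 (*Igfbp2*) and 0 when any other library was left out, and 1 (*Igfbp2*) when libraries of a genotype with the same title number were averaged.

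**Figure D1:**
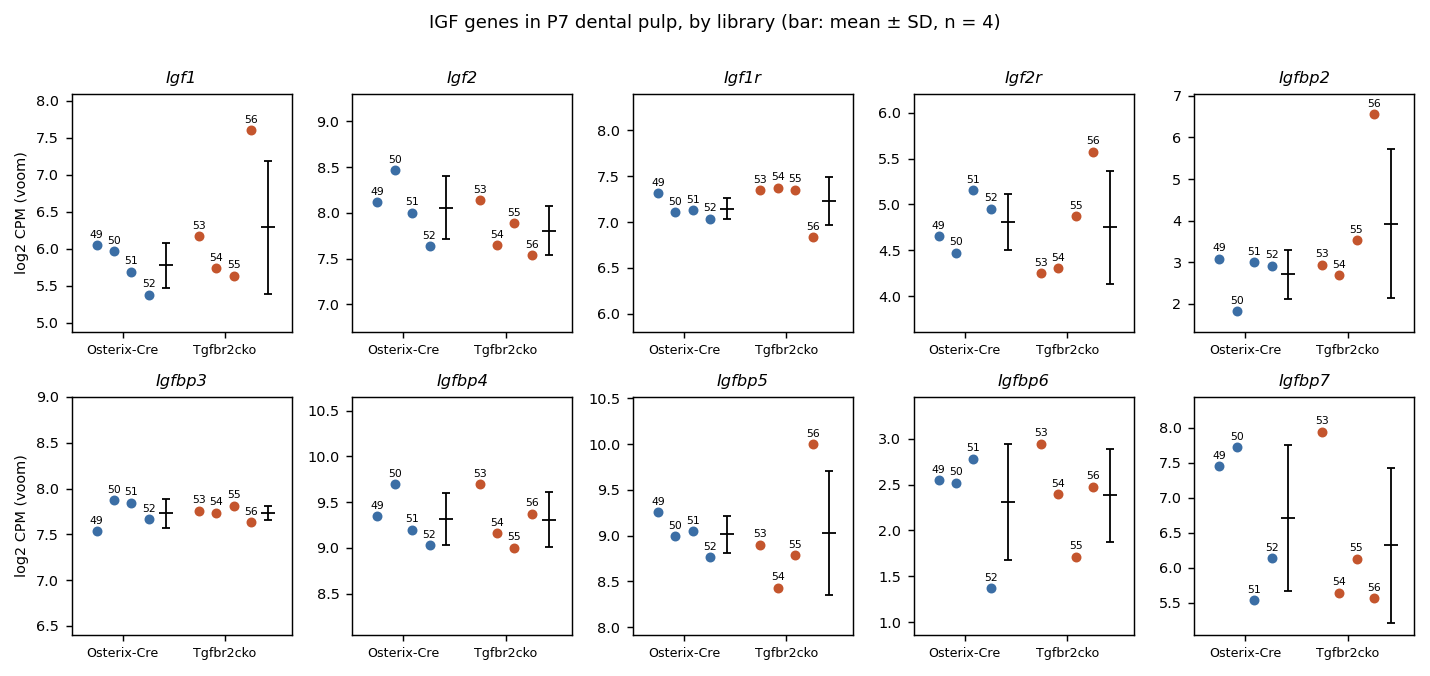
Log2 CPM of the 10 IGF genes in each library (points, numbered by library; blue, Osterix-Cre; orange, *Tgfbr2cko*), with the mean ± SD of each genotype (bars, n = 4); the vertical axes differ between panels. The genotypes overlap in every panel, and library 56 is the highest of 8 for *Igf1*, *Igf2r*, *Igfbp2* and *Igfbp5* and the lowest for *Igf1r* and *Igf2*.

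The limits that 4 libraries a genotype set on these differences varied from gene to gene. For *Igf1r*, *Igfbp3* and *Igfbp4* the 95% interval of the difference lay inside a 1.5-fold change in either direction. It lay inside a 2-fold change for 7 of the 10, while the intervals of *Igf1*, *Igfbp2* and *Igfbp7* reached beyond 2-fold, so changes of that size could not be told from none in these 3 genes. Without library 56, 5 intervals lay inside 1.5-fold and 8 inside 2-fold.

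**Figure D2:**
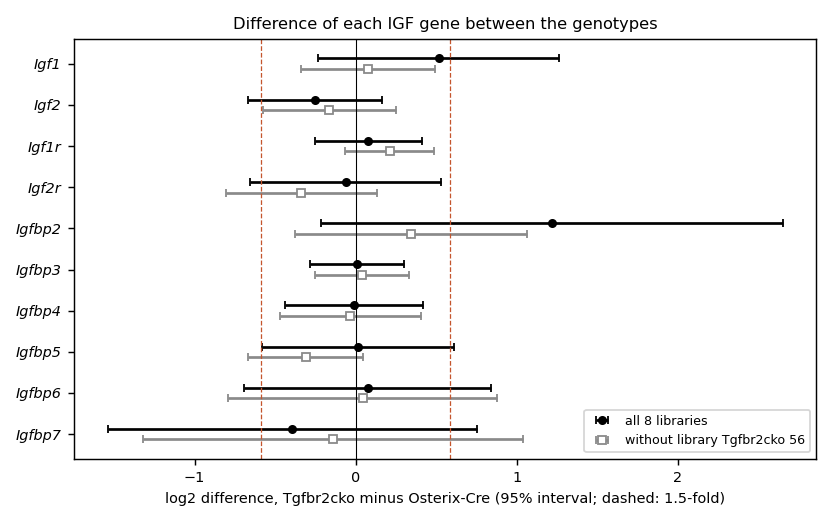
Difference of each IGF gene in log2 CPM, *Tgfbr2cko* minus Osterix-Cre, with its 95% interval from limma-trend, for all 8 libraries (filled circles) and without library 56 (open squares); dashed lines mark 1.5-fold. Every interval includes 0, and those of *Igfbp2* and *Igf1* are the ones that narrow most when library 56 is left out.

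Levels of different genes were compared per length, as CPM divided by the merged exon length in kilobases. In the controls the binding proteins *Igfbp4* at 147 ± 30.03, *Igfbp7* at 104 ± 65.9, *Igfbp5* at 87.0 ± 12.1 and *Igfbp3* at 68.1 ± 7.43 came first, followed by the ligand *Igf2* at 47.4 ± 11.2 (SD, n = 4 each). The level of *Igfbp4* per length exceeded that of 97.3% of the genes measured, and that of *Igf2* exceeded 90.6%. *Igf1r* at 8.46 ± 0.71, *Igf1* at 5.61 ± 1.13, *Igfbp6* at 4.70 ± 1.67, *Igfbp2* at 3.72 ± 1.23 and *Igf2r* at 3.06 ± 0.65 formed the lower end. In this order only *Igf2* over *Igf1r* and *Igf1r* over *Igf1* were neighbours whose control ranges lay apart, and the other neighbours overlapped. *Igfbp7* and *Igfbp5*, for example, came in that order in 2 of the 4 controls.

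**Figure D3:**
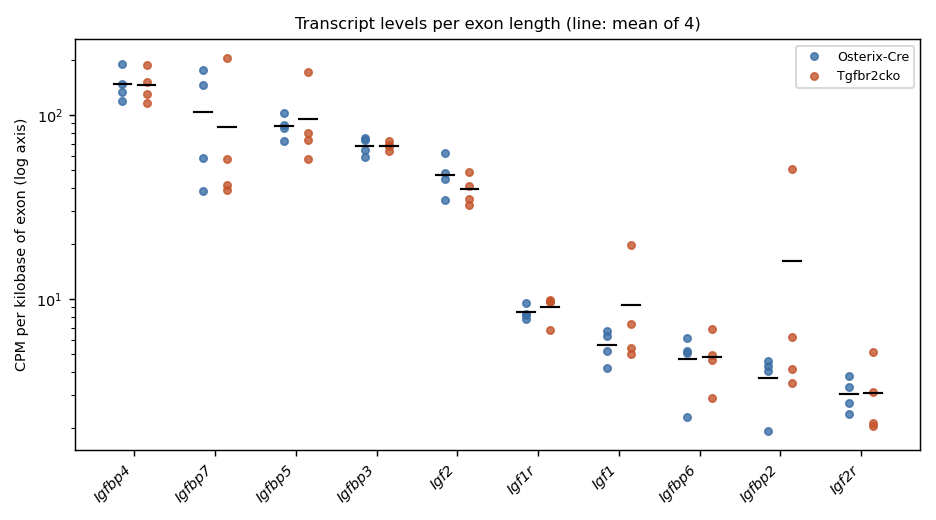
CPM per kilobase of exon (log axis) for the 10 IGF genes, ordered by their mean in Osterix-Cre; points are libraries (blue, Osterix-Cre; orange, *Tgfbr2cko*) and lines the means of 4. *Igfbp4*, *Igfbp7*, *Igfbp5*, *Igfbp3* and *Igf2* lie above the other 5 genes in every control, and 1 mutant library is far above the rest for *Igfbp2*.

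Of the ligands, *Igf1* (ENSMUSG00000020053.18; GRCm38, chromosome 10 from 87858265 to 87937042, plus strand), which mediates much of the growth response to growth hormone, had log2 values of 6.05, 5.97, 5.69 and 5.38 in the controls. The mutants had 6.18, 5.74, 5.64 and 7.60. Libraries 53 to 55 lay at or close to the control range, and library 56 lay far above it. The means were 5.77 ± 0.30 and 6.29 ± 0.91 (SD, n = 4), a difference of 0.51 (standard error 0.35, 95% interval -0.23 to 1.26), with a limma-trend p of 0.162 (adjusted p of 0.841). An exact permutation test gave p = 0.371, where the smallest p that the 70 arrangements allow is 0.0286. Without library 56 the difference was 0.08 (standard error 0.19, limma-trend p of 0.695), and library 56 alone exceeded the mean of the other 7 by 1.79 on the log2 scale.

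*Igf2* (ENSMUSG00000048583.16, chromosome 7 from 142650766 to 142666816, minus strand), the fetal growth factor expressed from the paternal allele, was the more abundant ligand. Its log2 values were 8.12, 8.47, 8.003 and 7.63 among the controls and 8.14, 7.65, 7.88 and 7.54 among the mutants. The genotypes overlapped over most of their range, with library 56 the lowest of the 8 in log2 CPM. That ranking is not corrected for the low median of library 56. *Igf2* differed by -0.25 between the genotypes (standard error 0.19, 95% interval -0.67 to 0.16, limma-trend p of 0.214, adjusted p of 0.894; exact permutation test, p = 0.314), and by -0.16 without library 56. Exons of *Gm49394*, a protein-coding gene that GENCODE M21 places on the same strand, cover 62.8% of the exon length of *Igf2*. The reads were counted with GENCODE M14, and whether that release holds *Gm49394* is not given in the sources used here. Only if it does could reads there have been assigned to either gene or to neither. *Gm49394* is not among the genes measured.

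The balance of the ligands was similar in 7 of the libraries. Per length, the controls held 7.24, 9.77, 8.60 and 8.27 times as much *Igf2* as *Igf1*, and mutant libraries 53 to 55 held 6.76, 6.51 and 8.24 times as much. In library 56 the ratio was 1.66. Its *Igf1* lay 1.79 above the mean of the other 7 libraries in log2 CPM, and its *Igf2* differed from theirs by -0.45. Both ligands together came to 53.1 ± 12.1 in the controls and 48.9 ± 6.99 in *Tgfbr2cko*, in the same per-length unit (SD, n = 4).

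*Igf1r* (ENSMUSG00000005533.10, chromosome 7 from 67952827 to 68233668, plus strand), the signalling receptor, had log2 values of 7.31, 7.11, 7.13 and 7.04 among the controls and 7.35, 7.37, 7.35 and 6.83 among the mutants. In log2 CPM, libraries 53 to 55 lay above every control by a small margin, and library 56 lay below every control. These values are not corrected for the low median of library 56. The difference was 0.08 with all libraries (standard error 0.15, 95% interval -0.25 to 0.41, limma-trend p of 0.615, adjusted p of 0.998; exact permutation test, p = 0.514). It was 0.21 without library 56 (standard error 0.13, limma-trend p of 0.121), which is inside 1.5-fold.

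*Igf2r* (ENSMUSG00000023830.13, chromosome 17 from 12682406 to 12769664, minus strand), the clearance receptor, had 168 to 646 reads per library. Its log2 values were 4.66, 4.47, 5.16 and 4.96 among the controls and 4.25, 4.30, 4.87 and 5.58 among the mutants. Libraries 53 and 54 were the lowest of the 8 and library 56 the highest, so the mutants spanned the controls on both sides. The mean difference was -0.06 (standard error 0.27, 95% interval -0.65 to 0.53), with a limma-trend p of 0.828 (adjusted p of 0.998), and the exact permutation test gave p = 0.886. Without library 56 it was -0.34 (standard error 0.22, limma-trend p of 0.143). Per length, *Igf1r* exceeded *Igf2r* 3.50, 3.45, 2.18 and 2.35 times in the controls and 4.77, 4.67, 3.10 and 1.32 times in the mutants, with libraries 53 and 54 above and library 56 below all controls.

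Among the binding proteins, *Igfbp2* (ENSMUSG00000039323.18, chromosome 1 from 72824503 to 72852474, plus strand) had the largest difference between the genotype means of the 10 genes, and 1 library carried it. Its log2 values were 3.09, 1.84, 3.01 and 2.92 among the controls and 2.95, 2.69, 3.53 and 6.55 among the mutants. In reads, library 56 held 1272 and each of the other 7 held 34 to 100. The difference of 1.22 (standard error 0.66, 95% interval -0.21 to 2.65) had a limma-trend p of 0.0891 (adjusted p of 0.718), and the exact permutation test gave p = 0.257. Without library 56 it was 0.34 (standard error 0.33, limma-trend p of 0.320). The unadjusted limma-trend p was under 0.05 when library 53 was left out (difference 1.55, p of 0.0362) or library 54 (1.63, p of 0.0345), both of which leave library 56 in, and the adjusted p was then 0.394 and 0.519. With libraries of the same title number averaged the difference was 1.13, with an unadjusted limma-trend p of 0.0158 (adjusted p of 0.292).

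The values of *Igfbp2* ran beside several marker lists across the libraries. Libraries 56, 55 and 49, in that order, were highest both in *Igfbp2* and in the mean of *Amelx*, *Ambn* and *Enam*, and libraries 50 and 54 were lowest in both. Of the 9 lists, Pearson's r of *Igfbp2* with the summed epithelial markers was 0.91 over the 8 libraries and 0.70 without library 56. With the pericyte and smooth muscle markers it was -0.88 and -0.69, with the macrophage markers -0.88 and -0.44, with the erythroid markers 0.85 and 0.33, and with the 2 measured Schwann cell markers 0.54 and 0.75. Each point is a library with its own depth and tissue content. With the enamel matrix genes as a covariate in the limma-trend fit the difference of *Igfbp2* was 0.39 (standard error 0.38, p of 0.324), and those of *Igf1* and *Igfbp5* were 0.18 and -0.28. The covariate was 15.3 in library 56 and 9.23 to 12.6 in the others, so this fit is not separate from leaving library 56 out. Without library 56 the differences of *Igfbp2*, *Igf1* and *Igfbp5* were 0.34, 0.08 and -0.31.

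*Igf1*, *Igfbp5* and *Igf2r*, also highest in library 56, ran beside the epithelial and erythroid lists as well. For *Igfbp5* r was 0.92 with the erythroid markers and 0.71 without library 56, and 0.80 and 0.31 with the epithelial markers. For *Igf1* it was 0.83 and 0.25 with the erythroid markers, 0.75 and -0.08 with the epithelial markers, and -0.76 and -0.73 with the odontoblast markers. The odontoblast sum is mostly *Col1a1*. For *Igf2r* it was 0.68 and 0.21 with the erythroid, 0.72 and 0.33 with the epithelial and 0.10 and 0.89 with the odontoblast markers. With the pericyte and smooth muscle markers it was -0.77 and -0.49. The part of RNA from other tissues in these values was not tested.

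**Figure D4:**
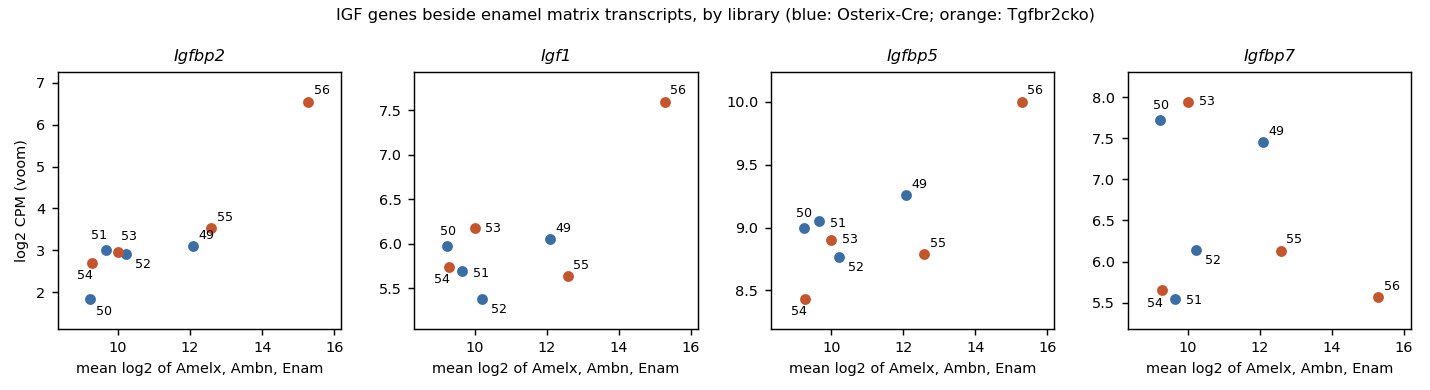
Log2 CPM of *Igfbp2*, *Igf1*, *Igfbp5* and *Igfbp7* in each library against the mean log2 CPM of *Amelx*, *Ambn* and *Enam*, which encode enamel matrix proteins (blue, Osterix-Cre; orange, *Tgfbr2cko*; points numbered by library). Library 56 lies at 15.3 on the horizontal axis and is highest for the first 3 genes, while the high *Igfbp7* values of libraries 49, 50 and 53 do not follow that axis.

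*Igfbp3* (ENSMUSG00000020427.11, chromosome 11 from 7206086 to 7213923, minus strand), the main IGF carrier of the circulation, was the steadiest of the 10 genes. It had log2 values of 7.53, 7.87, 7.85 and 7.67 among the controls and 7.76, 7.74, 7.81 and 7.64 among the mutants. All mutant values lay within the control range. The means were 7.73 ± 0.16 and 7.74 ± 0.07 (SD, n = 4), and only 3.56% of all genes had a smaller SD within the genotypes. The difference was 0.0066 (standard error 0.14, 95% interval -0.29 to 0.30), with a limma-trend p of 0.962 (adjusted p of 0.998), and the exact permutation test gave p = 0.971.

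*Igfbp4* (ENSMUSG00000017493.12, chromosome 11 from 99041244 to 99054392, plus strand), an inhibitor of IGF action that the protease PAPP-A cleaves, had the highest level per length. Its log2 values of 9.35, 9.70, 9.20 and 9.03 among the controls and 9.70, 9.16, 9.003 and 9.37 among the mutants covered nearly the same range. The difference was -0.01 (standard error 0.20, 95% interval -0.44 to 0.42, limma-trend p of 0.954, adjusted p of 0.998; exact permutation test, p = 0.857).

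*Igfbp5* (ENSMUSG00000026185.8, chromosome 1 from 72857932 to 72874884, minus strand), the neighbour of *Igfbp2* and a binding protein that attaches to extracellular matrix and bone mineral, had log2 values of 9.26, 8.998, 9.05 and 8.77 in the controls. The mutants had 8.90, 8.43, 8.79 and 10.004. Library 54 lay below all controls and library 56 above all of them. The difference was 0.01 with all libraries (standard error 0.28, 95% interval -0.58 to 0.61, limma-trend p of 0.962, adjusted p of 0.998; exact permutation test, p = 0.971). Without library 56 it was -0.31 (standard error 0.17, limma-trend p of 0.0845, adjusted p of 0.636). The sign also changed without control library 52 (-0.07), with library quality weights (-0.23) and with the enamel covariate (-0.28), so no direction can be given.

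*Igfbp6* (ENSMUSG00000023046.6, chromosome 15 from 102144362 to 102149511, plus strand), which binds IGF2 in preference to IGF1, had the fewest reads, 26 to 75 per library. Its log2 values were 2.55, 2.52, 2.78 and 1.37 among the controls and 2.95, 2.39, 1.71 and 2.48 among the mutants. Each genotype held 1 low library, 52 and 55, and the rest lay close together. The difference was 0.08 (standard error 0.36, 95% interval -0.69 to 0.84, limma-trend p of 0.835, adjusted p of 0.998; exact permutation test, p = 0.829).

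*Igfbp7* (ENSMUSG00000036256.13, chromosome 5 from 77349240 to 77408041, minus strand) encodes a related secreted protein with low affinity for IGFs that is prominent in blood vessels. Its log2 values were 7.46, 7.72, 5.55 and 6.14 among the controls and 7.95, 5.65, 6.13 and 5.57 among the mutants. Libraries 49, 50 and 53 formed a high group of both genotypes, and the other 5 lay between 5.55 and 6.14. The SD within the genotypes, 1.08, was larger than that of 99.1% of all genes, and the difference of -0.39 (standard error 0.53, 95% interval -1.54 to 0.75) had a limma-trend p of 0.472 (adjusted p of 0.990), and the exact permutation test gave p = 0.743. Without library 53 the difference was -0.93 with an unadjusted limma-trend p of 0.0395, adjusted p of 0.412, and without library 50 it was -0.06. Libraries 49 and 50 have the same title number, and with such libraries averaged the difference was -0.10. The 9 endothelial markers, none at 0, summed to 402 CPM in library 49, 546 in library 50 and 349 in library 53, and to 328 to 483 CPM in the other 5. Library 50 was the highest of the 8 in these markers, and libraries 49 and 53 lay within the range of the other 5. The 6 measured pericyte and smooth muscle markers summed to 738 CPM in library 50 and 706 in library 53, the highest of the 8, and to 556 in library 49. Pearson's r of *Igfbp7* over the 8 libraries was 0.62 with these markers and 0.23 with the endothelial ones, and 0.57 and 0.10 without library 56. Exons of *Polr2b* on the opposite strand cover 7.03% of its exon length, and whether reads were counted by strand is not given in the sources used here.

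The makeup of the binding protein transcripts was similar in the 2 genotypes apart from library 56. Per length, *Igfbp4* made up 35.8% ± 2.92 of the 6 transcripts in Osterix-Cre and 35.8% ± 4.80 in *Tgfbr2cko* (SD, n = 4). *Igfbp2* made up 0.36% to 1.27% in the controls, 0.752% to 1.90% in libraries 53 to 55 and 10.6% in library 56. *Igfbp5* made up 35.6% in library 56 against 14.5% to 25.6% in the other 7, and *Igfbp7* 8.17% against 11.2% to 37.0%. All 6 together came to 415 ± 99.2 in Osterix-Cre and 416 ± 119 in *Tgfbr2cko*, in CPM per kilobase. The transcripts of the binding proteins exceeded those of the ligands 7.83 ± 0.69 times in Osterix-Cre and 8.40 ± 1.28 times in *Tgfbr2cko* (SD, n = 4).

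Library 56 was the highest or lowest of the 8 for 6 of the 10 IGF genes, and for 45.3% of all genes. The 45 pairs of IGF genes differed in how far their correlation rested on library 56, and the pairs given here were chosen after their values were seen. Pearson's r of *Igf1* with *Igfbp5* was 0.88 and with *Igfbp2* 0.84, and without library 56 these were 0.45 and -0.27. *Igfbp2* with *Igfbp5* was at 0.80 and -0.0036, and *Igf2r* with *Igfbp2* at 0.77 and 0.42. The r between *Igf2* and *Igfbp7* was 0.80 with all libraries and 0.76 without library 56, and that between *Igfbp4* and *Igfbp7* was 0.75 and 0.85. *Igf1r* and *Igf2r* ran in opposite directions, with r of -0.78 over 8 libraries and -0.54 without library 56. The points of each pair share the same libraries, with their depth and their content of other tissues.

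Around the IGF genes, 38 of 50 genes listed for the pathway were measured, lists drawn up with earlier results of these data known, and 2 of them were altered, both lower in *Tgfbr2cko*, where 5.77% of all genes were altered. The median difference of the 38 was -0.04. Of the genes that carry or limit the receptor's signal, 18 of 20 were measured and 1 passed. In the list of binding protein proteases and their inhibitors, 6 of 9 were measured and 1 passed. That gene was *Htra3*, and whether its product cuts IGF binding proteins was not tested. In the growth hormone arm 0 of 5 measured genes were altered by limma-trend, with 1 at an unadjusted p under 0.05, a level that 8.38% of all genes reached. In the list of the *Igf2* locus, its RNA-binding proteins and other imprinted growth genes the count was 0 of 9, and 0 at an unadjusted p under 0.05.

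**Figure D5:**
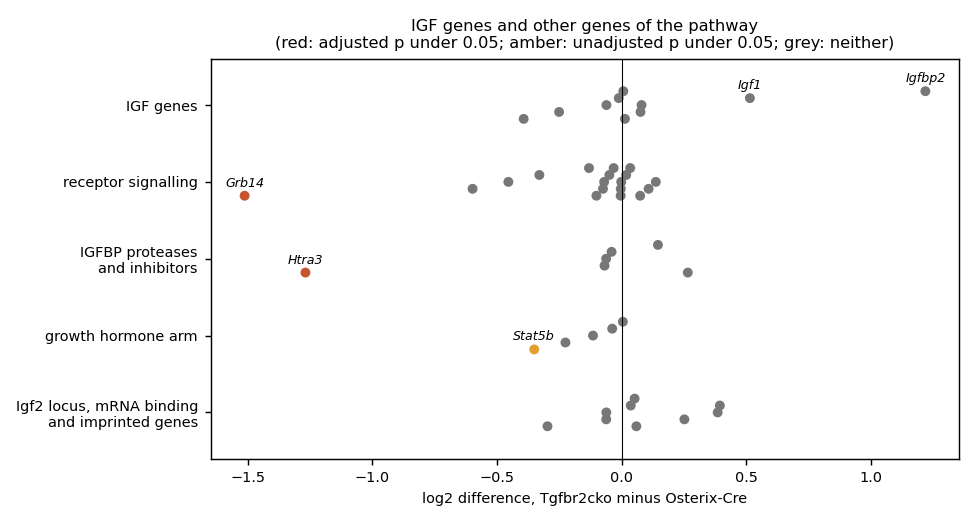
Difference in log2 CPM, *Tgfbr2cko* minus Osterix-Cre, of the IGF genes and of the measured genes of 4 pathway lists, 1 point a gene (red, adjusted p under 0.05; amber, unadjusted p under 0.05; grey, neither; vertical offsets only separate points). *Grb14* and *Htra3* lie at -1.51 and -1.27, and the IGF genes lie between -0.39 and 1.22.

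*Grb14* (ENSMUSG00000026888.14, chromosome 2 from 64912476 to 65024987) encodes an adaptor that binds activated insulin and IGF receptors and restrains their signal. Its log2 values were 6.88, 6.75, 7.39 and 7.36 among the controls and 5.55, 5.96, 5.76 and 5.06 among the mutants. Every mutant lay below every control. *Grb14* fell by 1.51 on the log2 scale (standard error 0.21, 95% interval -1.97 to -1.06), to 0.351 times the control level, with a limma-trend adjusted p of 0.00380 (exact permutation test, p = 0.0286). The adjusted p stayed between 0.00064 and 0.0207 under the 16 alternatives, library 56 left out included. The part of the shifts in marker genes in the values of *Grb14*, *Htra3* and *Stat5b* was not tested.

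*Htra3* (ENSMUSG00000029096.15, chromosome 5 from 35652023 to 35679782) encodes a secreted serine protease with an IGF-binding-protein-like domain. The controls had log2 values of 7.00, 6.91, 7.12 and 7.22, and the mutants had 5.63, 5.84, 6.13 and 5.59. Here too the genotypes lay apart in all 8 libraries. *Htra3* differed by -1.27 (standard error 0.15, 95% interval -1.60 to -0.93), a level of 0.415 times that of the controls, with a limma-trend adjusted p of 0.00137 (exact permutation test, p = 0.0286) and an adjusted p of 0.00039 to 0.00870 under the alternatives.

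*Stat5b* (ENSMUSG00000020919.11, chromosome 11 from 100780731 to 100850724), a transcription factor that carries the growth hormone signal to genes such as *Igf1*, had 5.47, 5.86, 5.46 and 5.34 among the controls and 5.24, 5.16, 5.28 and 5.04 among the mutants, in log2 CPM. All mutants lay below all controls, and the means differed by less than 1.5-fold. The genotypes lay apart in 3 of the 38 measured pathway genes, *Grb14*, *Htra3* and *Stat5b*, and in 5.27% of all genes. Its difference of -0.35 (standard error 0.16) had an unadjusted limma-trend p of 0.0443, adjusted p of 0.569, and the unadjusted p was under 0.05 in 6 of 16 alternatives. With single libraries left out, that p was under 0.05 only without library 52 (0.0313), and it reached 0.161 without library 50, where the difference was -0.24.

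The 2 genes of each list with the highest mean log2 CPM, a level not divided by length, included *Htra3*, and the others gave differences that did not pass the limma-trend test. The signalling adaptor *Shc1* and the kinase *Akt2* differed by -0.13 (standard error 0.19) and 0.02 (0.16), and without library 49 *Shc1* differed by -0.29. *Stc2*, whose product inhibits PAPP-A, differed by -0.07 (0.37). The growth hormone receptor *Ghr* differed by -0.23 (0.21), or -0.02 without library 56, and the feedback inhibitor *Socs2* by -0.11 (0.19). For the imprinted genes *Cdkn1c*, a cell cycle inhibitor, and *Mest* the differences were 0.04 (0.27) and 0.06 (0.25). Their unadjusted p ran from 0.299 for *Ghr* to 0.909 for *Akt2*, and their genotypes overlapped. Exons of *Gm44732* and *Copg2* on the opposite strand cover 30.7% of the exon length of *Cdkn1c* and 23.1% of that of *Mest*.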

How the data were processed

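RNA of 8 dental pulp libraries was amplified from low input and sequenced by the authors. Per the labels and methods they used fastp 0.21.0, HISAT2 2.1.0 on GRCm38.p5, featureCounts of Subread 2.0.1 with GENCODE M14, and the CLEAR filter, followed by voom. The deposited values are log2 CPM with 0.5 added to each count, and all 97184 gave back whole reads within 3.61e-08. Reads were amplified without molecular identifiers, so they are not independent molecules.

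The genotypes were compared on these log2 values in R 4.3.3 with limma 3.58.1 (moderated test with an intensity trend, 4 against 4 libraries, two-sided), adjusted over all 12148 genes by Benjamini-Hochberg. Single genes were also compared by an exact permutation test over the 70 arrangements. Symbols, positions and exon lengths came from GENCODE M21, by identifier without version (12144 matched). Named were all 10 IGF genes, *Tgfbr2*, and in each pathway list the genes with an unadjusted p under 0.05 and the 2 with the highest mean, and the 3 genes most like any IGF gene with an unadjusted p under 0.05, of which there were none. The genes and lists were chosen with earlier results of these data known. Alternatives were no trend, library quality weights, voom weights on the recovered reads, quantile normalization, median centring, a mean log2 value of at least 3, libraries of the same title number averaged (3 controls against 2 mutants), the enamel matrix genes as a covariate, each library left out in turn, and stricter calls. Protein sequences were not used here. Figures were drawn with matplotlib 3.10.9.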

Additional observations from a re-analysis of the deposited data

Results flagged for a closer look

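Within groups of 4 libraries, 1 library stood far from the other 3 in 4 of the 42 groups tested, 21 genes in each genotype, and chance flags about 1 in 20 groups. *Igf1r* in *Tgfbr2cko* was lowest in library 56, at 6.83 in log2 CPM against 7.35 to 7.37 in the other mutants. In *Igfbp2* the control library 50 was lowest, at 1.84 against 2.92 to 3.09. *Shc1* in control library 49 was at 6.78 against 7.40 to 7.42. For *Socs2*, control library 52 was at 5.48 against 6.03 to 6.10.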

How the results depend on the processing

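No IGF gene had an adjusted p under 0.05 under any alternative. The count of IGF genes altered, 0 as reported, was 1 when libraries of the same title number were averaged (*Igfbp2*, difference 1.13, unadjusted limma p of 0.0158, adjusted p of 0.292), and 0 to 2 when single libraries were left out, with *Igfbp2* and *Igfbp7* without library 53 and *Igfbp2* without library 54. Over all genes, 701 were altered, 256 at 2-fold, 115 at an adjusted p under 0.05, and 625 to 947 with single libraries left out. *Igf1*, *Igf2*, *Igf1r*, *Igfbp2*, *Igfbp7*, *Grb14*, *Htra3*, *Stat5b*, *Ghr* and *Tgfbr2* kept their direction in all 16 alternatives. With single libraries left out, *Igf1* ran from 0.077 to 0.73, *Igf2* from -0.39 to -0.11, *Igfbp2* from 0.34 to 1.63, *Igfbp7* from -0.93 to -0.058, *Ghr* from -0.36 to -0.023 (without library 56) and *Shc1* from -0.29 to -0.033. The sign changed in genes with differences near 0. With library quality weights these were *Igfbp3* (-0.0041), *Igfbp5* (-0.23), *Igfbp6* (-0.19) and *Stc2* (0.081), with title numbers averaged *Igfbp3* (-0.0022), *Igfbp4* (0.056), *Akt2* (-0.0042) and *Stc2* (0.015), and with the enamel covariate *Igfbp4* (0.021), *Igfbp5* (-0.28), *Shc1* (0.0080), *Stc2* (0.35) and *Socs2* (0.012). With single libraries left out the differences ran from -0.34 to 0.11 for *Igf2r*, -0.059 to 0.054 for *Igfbp3*, -0.14 to 0.11 for *Igfbp4*, -0.31 to 0.21 for *Igfbp5*, -0.24 to 0.30 for *Igfbp6*, -0.073 to 0.13 for *Akt2*, -0.44 to 0.33 for *Stc2*, -0.26 to 0.019 for *Socs2*, -0.18 to 0.25 for *Cdkn1c* and -0.15 to 0.27 for *Mest*. The cause was not tested. *Igfbp6* has no value once genes with a mean log2 value under 3 are left out. No paired analysis was possible because the genotypes share only 1 title number, 2, which the sources used here do not explain. Counts of 26 to 100 reads limit *Igfbp6* in all libraries and *Igfbp2* in all but library 56.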
